A study of Mus musculus with 6 samples.

Results

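Interferon response genes are the genes that a cell switches on when interferon, a secreted warning of infection, reaches its surface. Of 31 such genes listed by symbol for their function, 23 had a probe set annotated with that 1 symbol, out of 15384 genes with such a probe set (16769 probe sets of the 25150 in the table). Where a gene had several such probe sets, the brightest by its mean over the 6 arrays was used. Of the 23, 21 passed the filter on low values and were tested, and all 21 lay above background on every array. Ifit2 and Iigp1 did not pass, and both lay at background. Another 8 listed genes were not analysed here, Gbp2, Gbp6 and Igtp because their probe sets were annotated to several genes, and Isg15, Ifi44, Ifi47, Mx1 and Mx2.

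The arrays carried RNA from the adrenal glands of female C57Bl/6J mice at 21 weeks of age, and the design set offspring with developmental blockade of the NMDA receptor, a glutamate receptor, against control offspring of the same age. In the CGP group (3 arrays) the mothers had been given the NMDA receptor antagonist CGP 39551 by mouth at 5 mg/kg, during pregnancy and on until the pups were weaned. The control group (3 arrays) was of the same sex, strain and age, and the labels name no treatment for it. RNA was pooled from 18 mice in each group, and since the labels do not say whether the 3 arrays of a group held separate pools, the p-values reflect how far arrays of a group lay apart, which may be technical spread rather than that between mice. In whole glands, fewer cells of a type and less RNA per cell cannot be told apart.

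Type I interferons bind the receptor pair Ifnar1 and Ifnar2, and type II interferon binds Ifngr1 and Ifngr2. The Janus kinases on these receptors phosphorylate signal transducers such as Stat2. Stat2 acts with Irf9 in a complex that binds the interferon-stimulated response element (ISRE), while type II interferon works through the gamma-activated site (GAS). The genes so induced block viral RNA and protein synthesis, restrict microbes inside the cell, and load peptides for display to T cells. In the adrenal, macrophages and endothelial cells lie beside the steroid-producing cells of the cortex and the chromaffin cells of the medulla, and most nucleated cells can answer interferon.

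No interferon response gene passed the test. At an adjusted p under 0.05 (limma, Benjamini-Hochberg over all 16034 probe sets tested), 0 of the 21 were higher and 0 lower in CGP, against a background of 1.94% of all tested probe sets called higher, 1.59% lower and 3.53% in either direction. At an unadjusted p under 0.05 there were 5 of 21 (23.8%), against 19.3% of all tested. The differences (log2 fold change, CGP minus control) ran from -0.34 for Oas1a to 0.25 for Ifit1, with 12 genes above 0 and 9 below. The median log2 fold change was 0.04, and that over all tested probe sets was -0.01. The median of the 21 genes was 0.004 without control array 2 and 0.005 with array weights. The median size of the log2 fold change without regard to sign was 0.079 over the 21 genes and 0.073 over all tested.

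The CGP and control arrays did not overlap for 7 of the 21 genes. In 6 of these (28.6%) every CGP array lay above every control array, against 13.7% of all tested probe sets. In 1 (4.76%) every CGP array lay below, against 12.6% of all tested. The genes were listed with earlier results of these data known, so these shares are described and not tested. The median standard deviation (SD) within a group was 0.061 on the log2 scale over the 21 genes, and the 95% interval of the difference, not adjusted for the number of genes, stayed within 1.5-fold in either direction for 20 of the 21 and within 1.2-fold for 16. The exception at 1.5-fold was Oas1a. Like the p-values, these intervals may hold only technical spread and not that between mice.

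**Figure D1:**
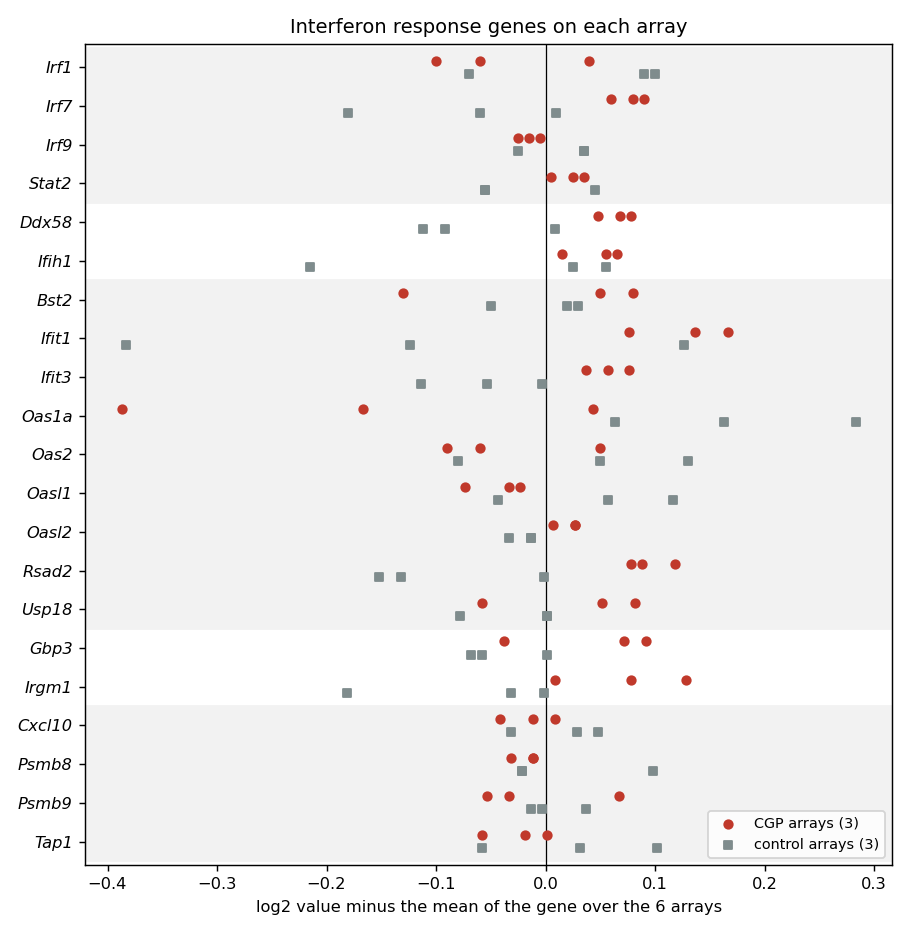
Deposited log2 value of each of the 21 tested interferon response genes (rows, grouped by role in bands) on each array, minus the mean of that gene over the 6 arrays (horizontal axis, log2), with the 3 CGP arrays as red circles and the 3 control arrays as grey squares (equal values lie on top of each other). Oas1a has the lowest CGP array and the highest control array, and the CGP arrays of Rsad2, Irf7, Ddx58, Ifit3, Irgm1 and Oasl2 all lie right of the control arrays.

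Among the antiviral effectors, 14 genes were listed and 9 tested, of which 6 lay above 0 and 3 below. Oas1a, an enzyme that senses double-stranded RNA and makes the messenger that switches on RNase L, had the largest difference of the 21 genes. Its log2 values were 7.0, 7.22 and 7.43 on the CGP arrays, against 7.67, 7.55 and 7.45 on the control arrays. The groups did not overlap, but CGP array 3 and control array 3 were almost equal. The log2 fold change was -0.34 (SE 0.108, 95% interval -0.59 to -0.09), a difference of 1.26-fold with an adjusted p of 0.143. Its paralogs had smaller differences, with log2 fold changes of -0.07 for Oas2 (adjusted p = 0.609), -0.09 for Oasl1 (adjusted p = 0.404) and 0.04 for Oasl2. Outside the list, Oas1b had -0.08 (adjusted p = 0.663), and Oas3, under background on 3 arrays, had 0.02 (adjusted p = 0.923). Oas1a belongs to a cluster of near-identical copies, and a further probe set was annotated to both Oas1a and Oas1g and was not used, so signal shared between copies is possible.

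The window around the Oas1a start, 250 bases before it and 50 from it on, is shown because this gene stood at the low end of the list while carrying the sequence that the interferon-activated complex recognises. It lies at chr5:120907476-120907775 on the minus strand (GRCm38.p6, RefSeq), is written 5′ to 3′ along the gene, and has in capitals a pair of overlapping ISRE cores (GAAANNGAAA, searched on both strands) and, ahead of them, a GAS match (TTCNNNGAA, which reads the same on both strands).
Oas1a: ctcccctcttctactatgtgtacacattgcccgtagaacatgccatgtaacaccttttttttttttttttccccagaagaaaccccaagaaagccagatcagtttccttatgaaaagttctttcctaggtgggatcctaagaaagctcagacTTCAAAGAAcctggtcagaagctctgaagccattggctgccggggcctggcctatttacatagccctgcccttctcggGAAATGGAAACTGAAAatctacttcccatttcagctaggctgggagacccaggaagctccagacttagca

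Rsad2 (viperin), a radical enzyme that makes a chain-terminating nucleotide against viral polymerases, had the smallest adjusted p of the 21 genes. Its log2 values were 8.67, 8.70 and 8.66 on the CGP arrays, against 8.45, 8.43 and 8.58 on the control arrays. Every CGP array was above every control array, with control array 3 the nearest. The log2 fold change was 0.19 (SE 0.054, 95% interval 0.07 to 0.32), a difference of 1.14-fold with an adjusted p of 0.108.

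Ifit1 and Ifit3 act against viral RNA that lacks the host's cap marks. Ifit1 had log2 values of 7.30, 7.21 and 7.27 on the CGP arrays, against 7.26, 7.01 and 6.75 on the control arrays. The CGP arrays were close together and the control arrays spread widely, with control array 1 inside the CGP range. The log2 fold change was 0.25 (SE 0.114, 95% interval -0.01 to 0.52, adjusted p = 0.273). Without control array 1 it was 0.38 with an adjusted p of 0.0389, the one setting in which any of the 21 genes was called, and without control array 3 it was 0.13 with an adjusted p of 0.534. Ifit3 had 8.03, 8.07 and 8.05 on the CGP arrays, against 7.94, 7.99 and 7.88 on the control arrays. Its groups did not overlap, and the log2 fold change was 0.11 (SE 0.048, adjusted p = 0.248). Ifit2, of the same family, averaged 5.71 ± 0.10 on the CGP arrays and 5.69 ± 0.09 on the control arrays (log2, SD, n = 3 each), under the array background of 6.42 to 6.55 on the CGP arrays and 6.49 to 6.65 on the control arrays. Ifit family members are similar in sequence, and cross-hybridisation between them was not tested.

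The windows of Rsad2 (chr12:26456403-26456702, minus strand) and Ifit1 (chr19:34640639-34640938, plus strand), from the same build, are set beside each other because these genes had the smallest adjusted p and the largest positive difference of the 21. Capitals mark the ISRE core, which both carry in its reverse orientation, once in Rsad2 and as a separated pair in Ifit1.
Rsad2: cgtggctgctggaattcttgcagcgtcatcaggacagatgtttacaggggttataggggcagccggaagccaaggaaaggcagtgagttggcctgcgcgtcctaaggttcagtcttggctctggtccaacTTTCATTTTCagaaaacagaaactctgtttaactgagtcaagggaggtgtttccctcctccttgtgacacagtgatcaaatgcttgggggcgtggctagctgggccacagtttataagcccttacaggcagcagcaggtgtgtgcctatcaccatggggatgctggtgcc
Ifit1: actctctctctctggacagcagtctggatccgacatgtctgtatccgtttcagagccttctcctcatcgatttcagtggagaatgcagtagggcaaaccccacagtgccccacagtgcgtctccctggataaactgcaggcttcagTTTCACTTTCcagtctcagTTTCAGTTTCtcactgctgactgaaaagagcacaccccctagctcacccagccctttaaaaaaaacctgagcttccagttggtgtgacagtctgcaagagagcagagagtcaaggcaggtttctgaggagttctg

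The remaining effectors differed little between the groups. Oasl2, a ubiquitin-like relative of the OAS enzymes, had log2 values of 9.07, 9.07 and 9.05 on the CGP arrays, against 9.03, 9.03 and 9.01 on the control arrays. Its groups did not overlap, yet the log2 fold change was only 0.04 (SE 0.041, 95% interval -0.06 to 0.13, adjusted p = 0.642). Bst2 (tetherin), which holds budding virus at the cell membrane, had a log2 fold change of 0.00 with a 95% interval of -0.15 to 0.15, and Usp18, the protease that removes Isg15 from proteins and damps the type I receptor, had 0.05 with an interval of -0.08 to 0.18.

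The 4 transcription factors of the list split evenly, 2 above 0 and 2 below. Irf7, the factor that amplifies type I interferon production, had log2 values of 8.48, 8.5 and 8.51 on the CGP arrays, against 8.43, 8.24 and 8.36 on the control arrays. All CGP arrays were above all control arrays, and the log2 fold change was 0.15 (SE 0.058, 95% interval 0.02 to 0.29, adjusted p = 0.203), or 0.10 without control array 2 (adjusted p = 0.368). Stat2, the signal transducer of the ISRE-binding complex, averaged 9.18 ± 0.02 on the CGP arrays and 9.14 ± 0.06 on the control arrays (log2, SD, n = 3 each; 95% interval of the difference -0.07 to 0.15, adjusted p = 0.654). Irf9, the DNA-binding part of that complex, averaged 9.0 ± 0.01 on the CGP arrays and 9.03 ± 0.03 on the control arrays (95% interval -0.13 to 0.07, adjusted p = 0.759). Irf1, a factor that type II interferon induces through a GAS, had 8.13, 7.99 and 8.03 on the CGP arrays, against 8.19, 8.02 and 8.18 on the control arrays, with overlapping groups and a log2 fold change of -0.08 (adjusted p = 0.532). A further, dimmer probe set of Irf1 gave the same log2 fold change of -0.08 (SE 0.048, adjusted p = 0.378), there with every CGP array below every control array.

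Both RNA sensors had a difference above 0 that did not pass the test. Ddx58 (RIG-I), which detects viral RNA ends in the cytosol, had log2 values of 9.57, 9.60 and 9.59 on the CGP arrays, against 9.53, 9.41 and 9.43 on the control arrays. The groups did not overlap, with control array 1 close to the CGP arrays, and the log2 fold change was 0.13 (SE 0.05, 95% interval 0.01 to 0.24, adjusted p = 0.217). Ifih1 (MDA5), the sensor of long double-stranded RNA, overlapped between the groups and had a log2 fold change of 0.09 (SE 0.074, adjusted p = 0.55).

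The interferon-inducible GTPases, which attack the vacuoles of intracellular microbes, were the role least covered, with 2 of 7 genes tested. Irgm1, a regulator of the other immunity-related GTPases, had log2 values of 8.38, 8.5 and 8.45 on the CGP arrays, against 8.37, 8.19 and 8.34 on the control arrays. The lowest CGP array and the highest control array were almost equal, and the log2 fold change was 0.14 (SE 0.062, adjusted p = 0.26), or 0.09 without control array 2 (adjusted p = 0.475). Gbp3, a guanylate-binding protein, had a log2 fold change of 0.08 (SE 0.052, adjusted p = 0.431). Iigp1 averaged 5.75 ± 0.08 on the CGP arrays and 5.73 ± 0.11 on the control arrays (log2, SD, n = 3 each), at background in both groups.

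All 4 genes of antigen processing and of chemokine signalling lay below 0, by amounts that did not pass the test. Tap1, a subunit of the transporter that moves peptides into the endoplasmic reticulum, averaged 8.57 ± 0.03 on the CGP arrays and 8.62 ± 0.08 on the control arrays (log2, SD, n = 3 each; 95% interval of the difference -0.17 to 0.08, adjusted p = 0.66). Psmb8, a catalytic subunit of the immunoproteasome, averaged 8.0 ± 0.01 on the CGP arrays and 8.04 ± 0.07 on the control arrays (95% interval -0.16 to 0.07, adjusted p = 0.69). Its partner Psmb9 had a log2 fold change of -0.01 (SE 0.05, adjusted p = 0.913), and Cxcl10, a chemokine that draws activated T cells, had -0.03 (SE 0.045, adjusted p = 0.772).

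**Figure D2:**
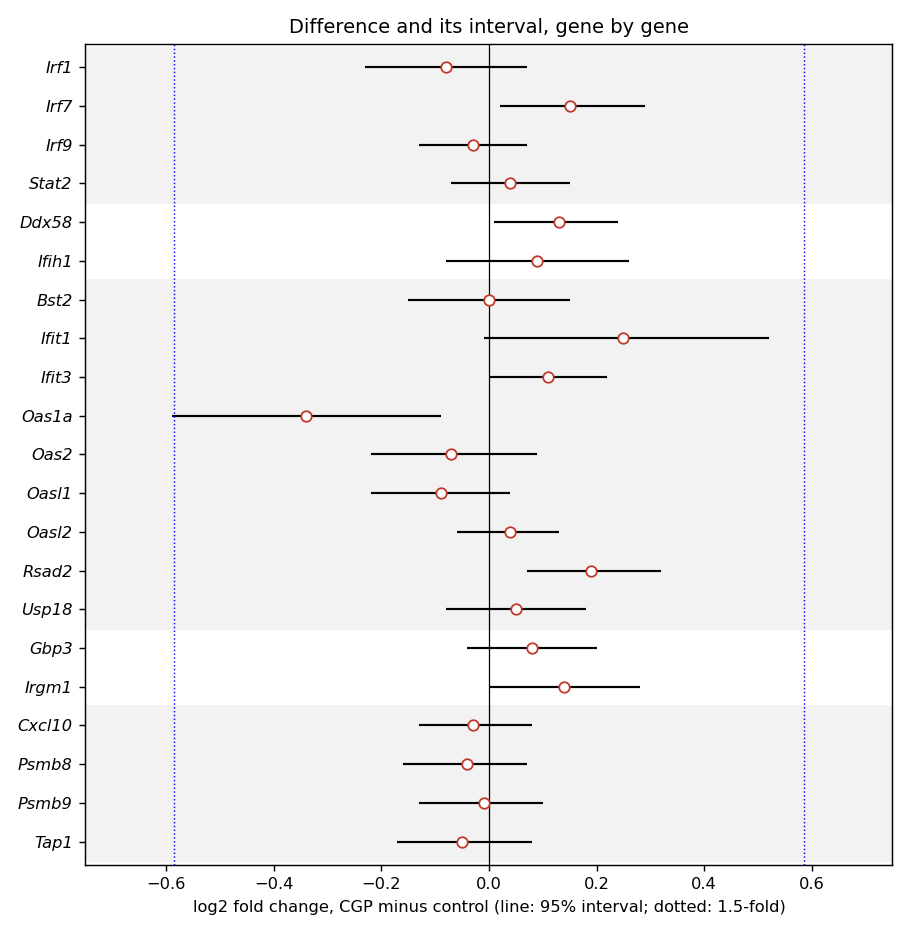
Log2 fold change, CGP minus control (horizontal axis), of the 21 tested interferon response genes (rows, in the same order and bands by role), with circles at the estimate, lines over the 95% interval of limma and dotted lines at 1.5-fold in either direction. None is called at an adjusted p under 0.05, and only the interval of Oas1a reaches past 1.5-fold.

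The median log2 value of the 21 genes was 8.31, 8.34 and 8.20 on the CGP arrays, against 8.19, 8.19 and 8.26 on the control arrays, so that CGP array 3 lay within the control range. Control array 2 was the lowest of the 6 arrays for 7 of the 21 genes, and CGP array 2 the highest for 7. Signal summed over the 21 genes on the linear scale, which the brightest genes dominate, was 7248 to 7338 on the CGP arrays and 6996 to 7205 on the control arrays.

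Start-site windows were found in RefSeq for 20 of the 23 measured genes (not for Iigp1, Oas2 and Usp18). An ISRE core was present in 11 of the 20 (Bst2, Cxcl10, Ddx58, Gbp3, Ifih1, Ifit1, Ifit3, Irgm1, Oas1a, Rsad2 and Stat2), against 3.99% of the 27025 genes with windows of the same length of 300 bases. A GAS match was present in 5 of the 20 (Bst2, Ifit2, Irf1, Oas1a and Psmb8), against 9.55% of genes. The ISRE core and the GAS match overlapped each other in Bst2, and ISRE cores overlapped one another in Bst2, Gbp3, Irgm1 and Oas1a. These matches describe letters in the windows and not sites in use. Of the genes with an ISRE core, Oas1a and Cxcl10 had a log2 fold change below 0 (-0.34 and -0.03). The others lay between 0.00 for Bst2 and 0.25 for Ifit1. Of the tested genes whose windows lacked a core, Irf7 and Oasl2 lay above 0, and Irf1, Irf9, Oasl1, Psmb8, Psmb9 and Tap1 below. The windows of Psmb9 (chr17:34187281-34187580, minus strand) and Tap1 (chr17:34187306-34187605, plus strand) are largely the same stretch read on opposite strands. They are therefore not separate sequences in these counts. A link between the motif and the difference was not tested.

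Genes of the same pathway outside the 31 were taken from 7 lists, with 163 genes in all and 120 tested. Of these, 7 were higher and 0 lower in CGP at an adjusted p under 0.05 (5.83% higher, against the 1.94% of all tested probe sets). The median log2 fold change of the 120 was 0.02. The lists were chosen with earlier results of these data known, so these shares describe the lists and do not test them. In 24 of the 120 all CGP arrays lay above all control arrays, and in 9 (7.5%) below, against 13.7% of all tested probe sets above and 12.6% below. Of the 7 tested interferon ligands none passed (1 at an unadjusted p under 0.05), and 4 of them (Ifna2, Ifna14, Ifna16 and Ifng) lay at background. None passed among the 18 sensors and adaptors of nucleic acids upstream (2 at an unadjusted p under 0.05), the 14 negative regulators such as the Socs and Pias families (4) and the 13 further genes of class I antigen presentation (1). The share of all tested probe sets at an unadjusted p under 0.05 (limma) was 19.3%.

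Of the interferon receptors and Janus kinases, 9 were tested and 1 was higher. Jak1, the kinase shared by type I and type II receptors, had log2 values of 10.21, 10.20 and 10.20 on the CGP arrays, against 10.02, 9.88 and 9.97 on the control arrays. The groups did not overlap, and the log2 fold change was 0.25 (SE 0.051, adjusted p = 0.0391). The call was lost without CGP array 1 (adjusted p = 0.116), CGP array 2 (adjusted p = 0.156), CGP array 3 (adjusted p = 0.145), control array 2 (adjusted p = 0.0823) or control array 3 (adjusted p = 0.12). The type I receptor chains had log2 fold changes of 0.00 for Ifnar1 (95% interval -0.12 to 0.12, adjusted p = 0.983) and -0.05 for Ifnar2 (95% interval -0.19 to 0.10, adjusted p = 0.715). For the type II receptor, Ifngr1 had 9.98, 10.04 and 9.93 on the CGP arrays, against 9.95, 9.63 and 9.76 on the control arrays, with control array 1 inside the CGP range (log2 fold change 0.20, adjusted p = 0.221, with 0.29 and an adjusted p of 0.0408 without control array 1, and 0.13 and an adjusted p of 0.408 without control array 2). Ifngr2 had 11.35, 11.36 and 11.35 on the CGP arrays, against 11.40, 11.48 and 11.41 on the control arrays, without overlap (log2 fold change -0.08, adjusted p = 0.4).

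Irf4 rose, with a larger difference than that of any of the 21 genes. It is a relative of Irf1 and Irf7 that is not part of the interferon-activated complex, and is known from lymphocytes, myeloid cells and fat cells. Its log2 values were 8.12, 8.13 and 8.05 on the CGP arrays, against 7.30, 7.19 and 7.23 on the control arrays. The groups were far apart and each was tight, with a log2 fold change of 0.86 (SE 0.05, 95% interval 0.74 to 0.97), 1.81-fold higher, and an adjusted p of 0.000108 that stayed under 0.05 in all 6 fits without 1 array. It was the only one of the 5 other tested interferon regulatory factors to pass, the rest lying below 0, down to -0.05.

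Of 74 further interferon-stimulated genes, 54 were tested and 5 (9.26%, against 1.94% of all tested probe sets) were higher, 0 lower, with 39 above 0 and 15 below and a median log2 fold change of 0.04. In 15 of the 54 (27.8%, against 13.7% of all tested) all CGP arrays lay above all control arrays, and in 2 (3.7%, against 12.6%) below. This list too was chosen with earlier results known, so its shares are described and not tested. Gbp7, a guanylate-binding protein that helps assemble the NADPH oxidase at vacuoles, had log2 values of 8.07, 8.0 and 8.0 on the CGP arrays, against 7.55, 7.53 and 7.69 on the control arrays. The groups were well apart, with a log2 fold change of 0.43 (SE 0.057, 95% interval 0.30 to 0.56), 1.35-fold higher, and an adjusted p of 0.00635 that stayed under 0.05 without any 1 array. Ifi27l2a, a small membrane protein, had 10.25, 10.28 and 10.22 on the CGP arrays, against 9.94, 9.88 and 9.97 on the control arrays, again without overlap. Its log2 fold change was 0.32 (SE 0.048, adjusted p = 0.0111), and the call was lost only without CGP array 2 among these fits (adjusted p = 0.0747).

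The window of Gbp7 (chr3:142530086-142530385, plus strand, same build) is shown because this gene rose while its relative Gbp3, with a pair of overlapping ISRE cores, did not pass. Capitals mark, in order, a pair of GAS matches and an ISRE core in reverse orientation.
Gbp7: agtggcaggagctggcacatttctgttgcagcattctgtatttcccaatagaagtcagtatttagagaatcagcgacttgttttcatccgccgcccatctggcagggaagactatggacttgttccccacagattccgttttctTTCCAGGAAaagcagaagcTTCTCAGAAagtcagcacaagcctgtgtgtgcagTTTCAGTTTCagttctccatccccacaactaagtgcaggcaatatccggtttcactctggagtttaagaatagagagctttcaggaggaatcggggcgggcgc

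The other 3 higher genes of this list were less firm. Ifi205, of the DNA-binding PYHIN family, had log2 values of 7.24, 7.49 and 7.14 on the CGP arrays, against 6.81, 6.57 and 6.46 on the control arrays, and control arrays 2 and 3 lay under background. Its log2 fold change was 0.68 (SE 0.112, adjusted p = 0.0183), and the call was lost without CGP array 1 (adjusted p = 0.0585), CGP array 2 (adjusted p = 0.0617), control array 2 (adjusted p = 0.0604) or control array 3 (adjusted p = 0.0751). Trim30a, a TRIM family protein that restrains Toll-like receptor signalling, had 8.56, 8.66 and 8.62 on the CGP arrays, against 8.37, 8.26 and 8.25 on the control arrays. Its log2 fold change was 0.32 (SE 0.053, adjusted p = 0.0195), lost without CGP array 2 (adjusted p = 0.104), CGP array 3 (adjusted p = 0.097), control array 2 (adjusted p = 0.0591) or control array 3 (adjusted p = 0.0909). Ifi207, also of the PYHIN family and named after its value was seen, had 8.75, 8.78 and 8.64 on the CGP arrays, against 8.52, 8.30 and 8.37 on the control arrays. Its log2 fold change was 0.33 (SE 0.07, adjusted p = 0.0491), and the call was kept in 1 of 6 fits without 1 array, that without control array 1 (adjusted p = 0.0168), the others lying between 0.0985 and 0.194. PYHIN, GBP and TRIM30 genes sit in clusters of similar copies, and signal shared between copies is possible.

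**Figure D3:**
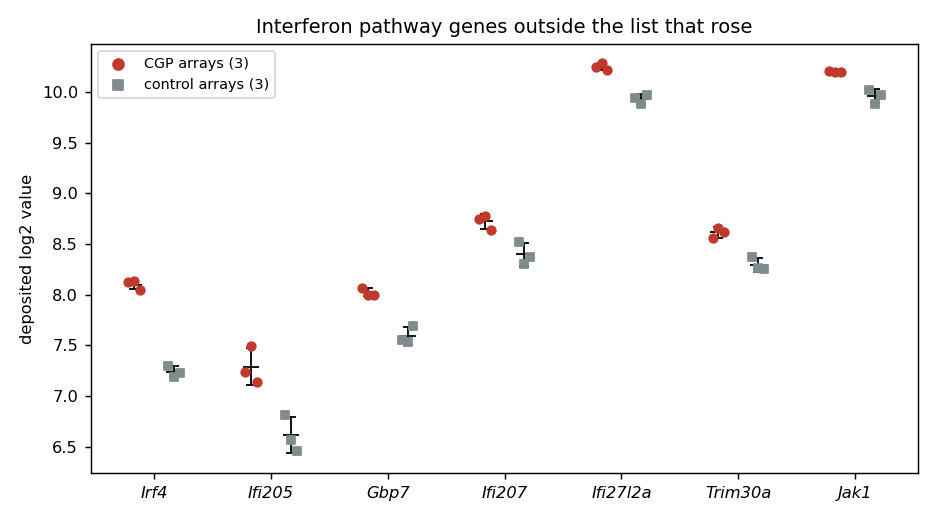
Deposited log2 values (vertical axis) of the 7 pathway genes outside the list that were higher in CGP (horizontal axis), on each of the 3 CGP arrays (red circles) and 3 control arrays (grey squares), with black lines at the mean and SD of each group. The groups overlap in none of the 7, and Irf4 is the gene with the widest gap, at a log2 fold change of 0.86.

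No marker of the immune and vessel cells that could carry these genes passed the test. For macrophages, 0 of 16 tested markers were called (2 at an unadjusted p under 0.05, median log2 fold change -0.04), their summed linear signal was 9862 to 10200 on the CGP arrays and 10276 to 10562 on the control arrays, and Cd163, Marco and Clec4f were at background. Of 12 endothelial markers 0 were called (1 at an unadjusted p under 0.05), with sums of 13933 to 14388 on the CGP arrays and 13993 to 14196 on the control arrays. An unadjusted p under 0.05 (limma) was reached by 19.3% of all tested probe sets. In the following lists none was called and none reached an unadjusted p under 0.05. The 7 dendritic cell markers summed to 750 to 810 on the CGP arrays and 710 to 830 on the control arrays, with Flt3, Xcr1 and Siglech at background. The 8 T cell markers summed to 726 to 745 on the CGP arrays and 718 to 803 on the control arrays, with Cd247, Cd4, Cd8b1, Cd2, Cd5 and Zap70 at background. The 5 markers of B and plasma cells summed to 467 to 495 on the CGP arrays and 467 to 516 on the control arrays, with Pax5, Cd22 and Blk at background. The 5 neutrophil markers summed to 415 to 434 on the CGP arrays and 424 to 481 on the control arrays, with S100a9 and Mpo at background, and the 2 natural killer cell markers to 280 to 298 on the CGP arrays and 279 to 303 on the control arrays.

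Markers of other tissues changed. All 24 tested hepatocyte markers were lower in CGP (median log2 fold change -0.86, sums of 24977 to 25620 on the CGP arrays and 41694 to 42289 on the control arrays), and 13 of 15 adipocyte markers were higher (median 0.46, sums of 52876 to 53316 on the CGP arrays and 38134 to 39066 on the control arrays). Of the fibroblast and matrix markers, 3 of 12 (25.0%) were higher and 1 lower. Among all tested probe sets, 1.94% were called higher and 1.59% lower, and 19.3% had an unadjusted p under 0.05 (limma). Markers of the adrenal itself were bright on every array. The median of the cortex markers was 12.84 to 12.95 on the CGP arrays and 12.68 to 12.83 on the control arrays (1 of 11 higher), and that of the medulla markers was 10.59 to 10.67 on the CGP arrays and 10.5 to 10.7 on the control arrays (0 of 11 called, 1 at an unadjusted p under 0.05). The part of these shifts in the values of Irf4, Gbp7, Ifi27l2a, Jak1 and the other genes above was not tested.

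**Figure D4:**
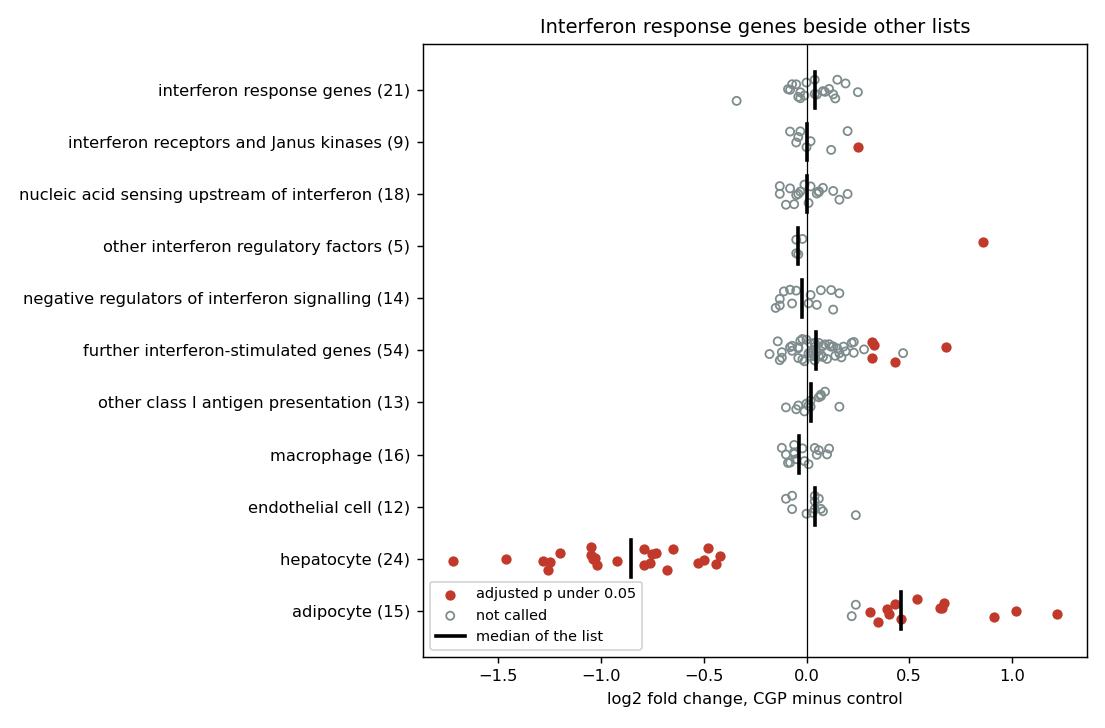
Log2 fold change, CGP minus control (horizontal axis), of each tested gene in the interferon response list, in 6 further interferon pathway lists and in 4 cell type lists (rows, with the number of genes tested), with filled red points for genes at an adjusted p under 0.05, open grey points for the rest and a black bar at the median of the list. The 21 interferon response genes hold no filled point and have a median of 0.04, while all 24 hepatocyte genes lie below 0 and all 15 adipocyte genes above it.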

How the data were processed

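Adrenal RNA of 2 groups was measured on 6 arrays, and groups were taken from the sample titles. A single table of log2 values was deposited (3.75 to 14.65, array medians 7.91 to 7.96), for which the submitters' processing notes name RMA, which corrects background, quantile normalises arrays and summarises probes, and Partek. Tool versions: not given in the sources used here. RMA shrinks differences at low signal. Genes were named through the platform annotation, and Entrez numbers found 16723 of 16769 symbols in a RefSeq table (GRCm38.p6), with 0 changed. Precision is set by the number of arrays.

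Probe sets with 1 symbol that reached a log2 value of 6 on 3 arrays or more were tested by limma 3.58.1 under R 4.3.3 (functions lmFit and eBayes; two-sided, no covariates), with Benjamini-Hochberg adjustment over all 16034, of 14727 genes. SE is limma's moderated standard error. Each array's background was the 75th percentile of the 127 probe sets named for sensory receptors (olfactory, vomeronasal, trace amine). The script was tested on simulated data. Start-site windows and their coordinates came from RefSeq, GRCm38.p6.

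The genes and lists were chosen with earlier results of these data known. All tested interferon response genes are named, and those without overlap between groups are given array by array. Stat2, Irf1, Irf7, Irf9, Ifit1, Psmb8, Tap1 and the interferon receptors were to be given whatever their values. Up to 4 called genes per pathway list were planned, and Ifi207 was named beyond that limit. Other pathway genes were not named for lack of overlap alone. Oas1b and Oas3 were added as paralogs of Oas1a. Alternatives covered the filter, the probe sets, the normalisation, the variance model, array weights, a least change of 1.2-fold, a block on the array number, the probe sets of a gene, and leaving out each array.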

Additional observations from a re-analysis of the deposited data

How the results depend on the processing

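No interferon response gene was called higher or lower under any alternative that kept all 6 arrays, and the median log2 fold change of the tested genes lay between 0.005 and 0.039 under these and between 0.004 and 0.046 without 1 array. Some genes came near the threshold. With array weights the limma adjusted p was 0.0556 for Ifit1, 0.0611 for Ifit3 and 0.0638 for Ddx58. With a variance trend and robust prior it was 0.0573 for Oas1a and 0.0629 for Rsad2. With the array number as a replicate block it was 0.318 for Ifit1, 0.289 for Oas1a and 0.271 for Rsad2. Without 1 array the count called higher lay between 0 and 1 (Ifit1 without control array 1) and the count called lower was 0. The number of probe sets called among all tested, 566, moved to 348 with all probe sets of the table, 1261 with a variance trend and robust prior, 1665 with array weights, 126 at a minimum of 1.2-fold and 224 with the array number as a replicate block, and lay between 236 and 1099 without 1 array, the highest without control array 1. Same-numbered CGP and control arrays did not deviate together (correlations of -0.36, -0.17 and -0.12), and arrays of unlike number had correlations from -0.16 to 0.28. Deviations from means of only 3 arrays cannot settle whether the numbers pair the arrays, and the labels do not say. The block on the array number called 0 interferon response genes. Of the pathway calls it kept Irf4, Gbp7 and Ifi205, and at a minimum of 1.2-fold only Irf4 remained. With all probe sets of the table, Irf4, Gbp7 and Ifi27l2a stayed called. Jak1, Ifi205, Ifi207 and Trim30a did not (limma adjusted p of 0.0992, 0.0761, 0.132 and 0.0638). Without the filter on low values Ifi207 was lost (limma adjusted p = 0.0543). The log2 fold change of Ifnar1 turned to -0.002 with quantile normalisation and -0.004 with median centring, and ran from -0.033 to 0.025 without 1 array, and that of Ifnar2 ran from -0.089 to 0.014. The causes were not tested. Of 360 values of single genes under the alternatives, 318 kept their direction and side of the threshold.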
